A study of Mus musculus with 10 samples.

Results

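Collagen genes were identified by their mouse symbols, Col followed by a type number, the letter a and a chain number. Of the 32285 genes counted, 44 matched, and all 44 had at least 1 count in 1 of the 10 libraries. RNA came from the blood of C57/BL6J mice, taken behind the eye under pentobarbital anaesthesia, and the labels give the cell type as leukocyte. The groups were a 0 h reference labelled Con, sleep deprivation for 6, 12, 24 or 48 h (SD), and a sleep restriction method reported elsewhere, abbreviated SASD in the labels, for 6, 12, 24, 48 or 120 h. Each group was 1 library of RNA from 3 pooled mice, so a ratio between 2 libraries has no replicate check. Ranges in brackets after a ratio or a total are 95% counting intervals, which cover counting error only. Neither the age and sex of the mice nor the way SD and SASD were imposed is given in the sources used here. Below, values for SD are always listed in the order 6, 12, 24 and 48 h, and those for SASD in the order 6, 12, 24, 48 and 120 h.

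Collagens are the main structural proteins of the extracellular matrix. Their alpha chains wind into triple helices, which are secreted chiefly by fibroblasts and related connective tissue cells and assemble into fibrils, networks or beaded filaments. Circulating leukocytes are not a known major source of collagen, while leukocytes and platelets carry collagen receptors. Olfactory receptor genes have no known role in blood, and their counts were used here as a measure of the low count that genes without a known role in the tissue received in each library.

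Total counts ran from 7825120 in SASD 24 h to 27501393 in Con. Con, SD 48 h and SASD 48 h stood apart from the other 7 libraries. Of 1134 olfactory receptor genes, 874, 312 and 700 were detected in these 3 libraries, against 30 to 57 in the other 7. Haemoglobin genes took 0.727%, 0.316% and 0.275% of counts, against 3.57% to 6.96%. The 8 leukocyte markers checked all had counts in every library, at a sum of 9059 to 13098 CPM (counts scaled to a common library size with TMM factors). Con is also the single reference of all 9 comparisons against it, so those comparisons share whatever was particular to that library.

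Summed over the 44 genes, collagens were highest in Con and next in SASD 6 h, an order that olfactory receptor counts did not follow. The summed collagen level was 179.7 CPM in Con, 70.8, 77, 71.4 and 65.7 in SD, and 124, 56.2, 58.8, 80.8 and 59.4 in SASD. The Con total (95% counting interval 175.1 to 184.3 CPM) was 1.45 times that of SASD 6 h (1.37 to 1.54) and 2.22 to 3.19 times that of the other 8 libraries. The SASD 6 h total was 1.75 times that of SD 6 h (1.60 to 1.92), both libraries being outside the set with many olfactory receptor counts. In raw terms collagens took 5883 of the counts in Con (0.0214%) and 384 (0.00491%) to 2295 (0.00925%) in the other libraries, SASD 6 h standing at 1302 (0.0117%). In bulk RNA, fewer cells of a type and less RNA per cell cannot be told apart.

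Olfactory receptor genes had 0.0543 CPM per kb in Con, 0.00475, 0.00575, 0.00434 and 0.0133 in SD, and 0.00523, 0.00543, 0.00548, 0.0296 and 0.00467 in SASD. They were thus high in Con, lower in SASD 48 h and SD 48 h, and close to each other in the other 7 libraries, SASD 6 h among them. Collagens on the same scale had 0.516 CPM per kb in Con, 0.203, 0.221, 0.205 and 0.189 in SD, and 0.356, 0.162, 0.169, 0.232 and 0.171 in SASD. The collagen density was therefore 9.51 times the olfactory receptor density in Con (9.18 to 9.85), 7.85 times in SASD 48 h and 14.2 times in SD 48 h, and 29.8 (SASD 12 h) to 68.1 times (SASD 6 h, 58.7 to 79.4) in the other 7. Had every collagen been counted at the olfactory receptor density of its own library, this would have given 10.5% of the collagen counts in Con, 12.7% in SASD 48 h, 7.05% in SD 48 h and 1.47% to 3.36% elsewhere. The level above that density was 160.8 CPM in Con, 122.0 in SASD 6 h and 54.4 to 74.9 in the other 8 libraries, so the order of Con, SASD 6 h and the rest did not change.

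**Figure D1:**
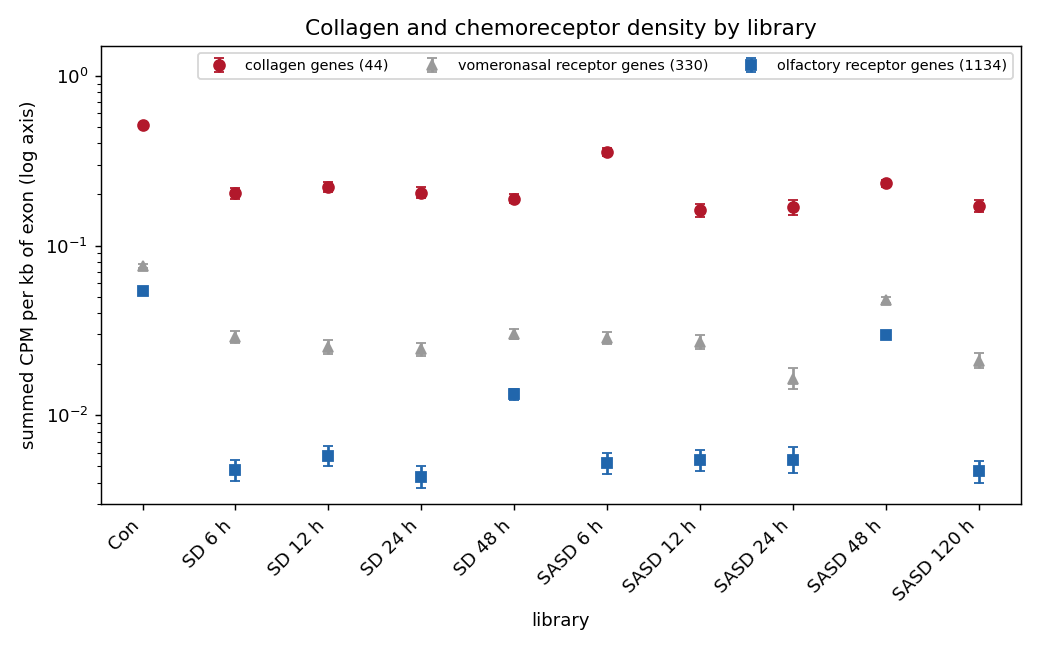
Summed level per kilobase of merged exon (CPM per kb, log axis) of the 44 collagen, 330 vomeronasal receptor and 1134 olfactory receptor genes in each library, with 95% Poisson counting intervals. Collagens lie above both receptor families in every library, and are high in Con (0.516) and SASD 6 h (0.356), while olfactory receptors are high in Con (0.0543) and SASD 48 h (0.0296).

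The olfactory receptor comparison has its own limits. The 10 olfactory receptor genes with the highest mean CPM took 60.7% to 78.0% of that family's counts in the 7 libraries outside the high set, against 9.01% in Con, 14.5% in SASD 48 h and 28.4% in SD 48 h. Vomeronasal receptors, pheromone receptor genes with no known role in blood, gave a smaller contrast: collagens stood at 4.87 (SASD 48 h) to 12.5 times (SASD 6 h) their density, with Con at 6.83. Con thus lay within the range of the other libraries. The shares of collagen counts at receptor density given above would be larger with this family. The collagen count of a gene was only weakly related to its exon length. Spearman's rho between the 2 over the 44 genes of a library was 0.22 in Con and between -0.07 and 0.10 in the others, given as a description across genes that share a library.

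All 44 collagens had at least 1 count in Con and in SASD 48 h, against 27 (SASD 120 h) to 41 (SD 48 h) in the other 8. Thinned to the smallest library total, 43.5 would be expected in Con, 41.3 in SASD 48 h, 38.6 in SD 48 h, 32.8 in SASD 6 h and 25.7 to 32.0 in the other 6. Detection at equal depth thus set apart the same 3 libraries as the olfactory receptors did, while the summed level did not. In Con 40 of 44 collagens had a counting interval wholly above the olfactory receptor density and 2 (Col4a6 and Col2a1) wholly below it. In SASD 6 h 28 lay above, against 19 in SD 6 h. These interval counts were taken at full depth, with 27501393 counts in Con, 11082847 in SASD 6 h and 10926554 in SD 6 h. The share of all genes lying above was not computed. Con held the highest CPM of the 10 libraries for 34 of 44 collagens (77.3%), against 35.1% of the 29248 genes with a count and 64.0% of the 965 olfactory receptor genes with a count. Among those 34, the second highest library was SASD 48 h for 16 and SASD 6 h for 10. Of all 10267 genes highest in Con, SASD 48 h was second for 5062 and SASD 6 h for 556. Of the 618 olfactory receptor genes highest in Con, these numbers were 329 and 5.

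**Figure D2:**
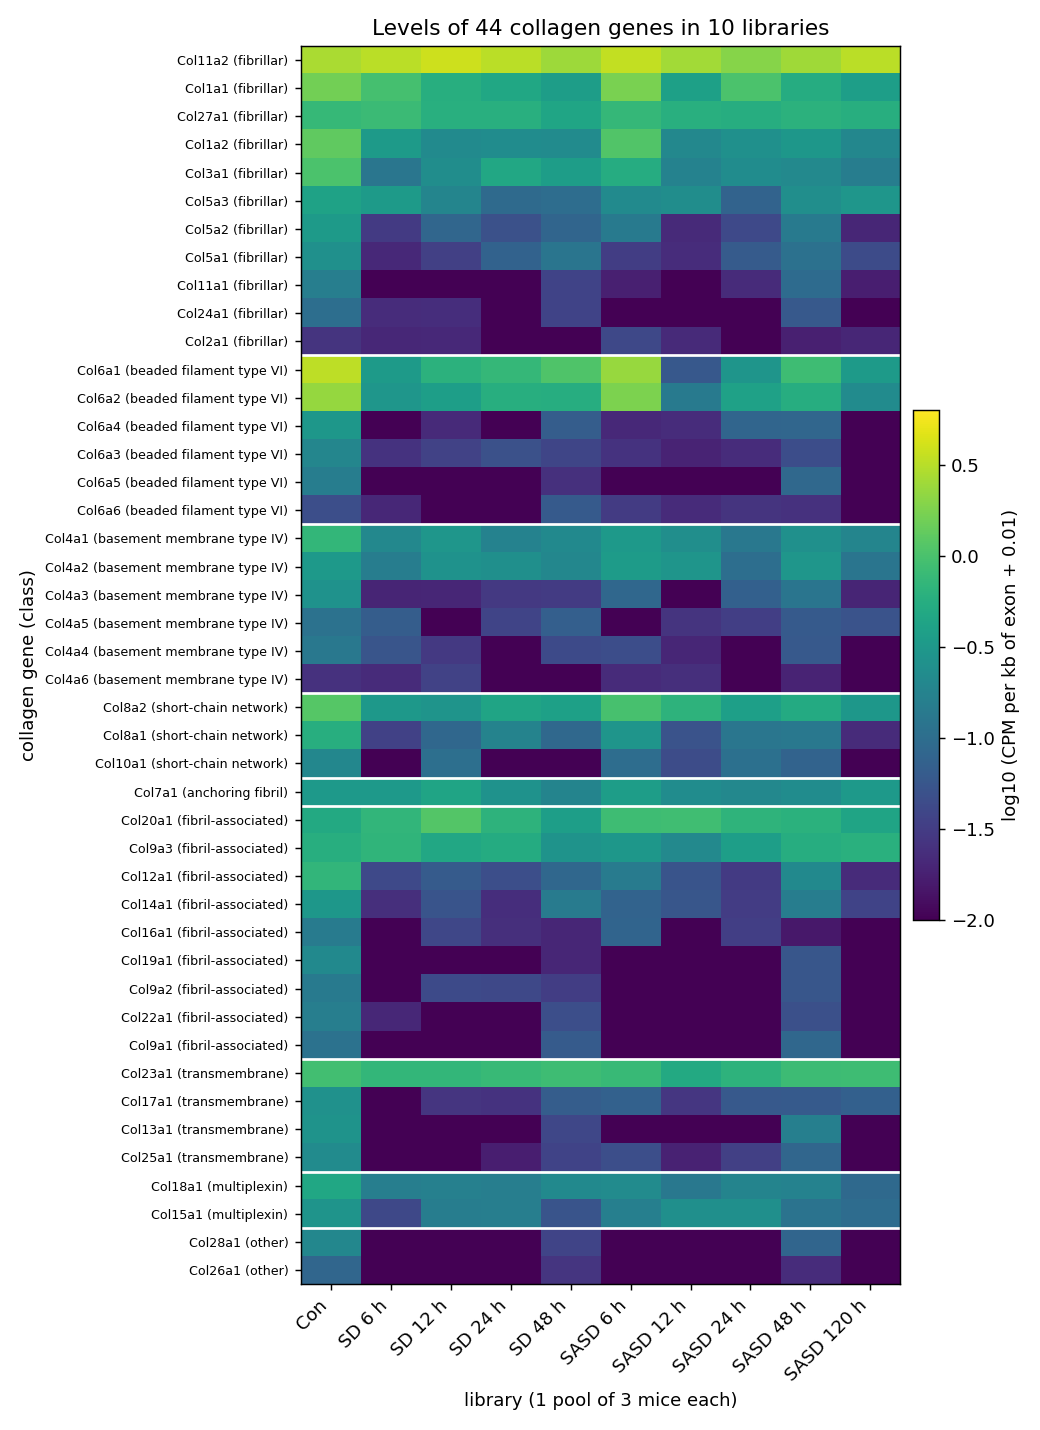
Level of each of the 44 collagen genes (rows, by class and then by mean level) in each of the 10 libraries (columns), as log10 of CPM per kb of exon plus 0.01. Col11a2, Col27a1 and Col23a1 have no low columns, Col1a1, Col1a2, Col6a1 and Col6a2 are bright in Con and SASD 6 h, and 10 genes in several classes are near the floor outside Con and the 48 h libraries.

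Fibrillar collagens, which form the cross-striated fibres of skin, bone, tendon and cartilage, held 75.8 CPM in Con, 46.4, 44.9, 41.4 and 33.8 in SD, and 66.3, 33.6, 33.8, 39.5 and 37.9 in SASD over their 11 genes. Their members differed in pattern. Col1a1 (chromosome 11, 94936224 to 94953042, plus strand, GRCm38) and Col1a2 (chromosome 6, 4504814 to 4541544, plus strand) encode the alpha 1 and alpha 2 chains of type I collagen, the major protein of bone, skin and tendon. Col1a1 was at 10.5 CPM in Con, 6.11, 3.63, 3.0 and 2.33 in SD, and 11.2, 2.50, 6.58, 3.45 and 2.35 in SASD. Con and SASD 6 h stood above the other 8 libraries, and SASD 6 h was at the level of Con, with a ratio of Con over SASD 6 h of 0.936 (0.757 to 1.16). Col1a2 had 529 counts in Con, 42, 26, 29 and 39 in SD, and 142, 22, 20, 103 and 25 in SASD, or 16.2 CPM in Con, 4.01, 2.62, 2.72 and 2.67 in SD, and 13.5, 2.39, 3.06, 3.63 and 2.35 in SASD. The same 2 libraries were high, and the other 8 lay between 2.35 and 4.01 CPM. Con over SASD 6 h was 1.20 (0.992 to 1.45), and SASD 6 h over SD 6 h was 3.37 (2.37 to 4.87).

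Col3a1, the type III chain that joins type I fibrils in skin and vessel walls, was at 9.89 CPM in Con, 1.15, 2.22, 4.60 and 3.42 in SD, and 5.23, 1.63, 2.14, 1.94 and 1.41 in SASD. It was highest in Con and next in SASD 6 h, but SD 24 h came within reach of SASD 6 h. At 6 h SASD was 4.57 (2.42 to 9.37) times SD, while at 24 h the ratio was 0.466 (0.237 to 0.857) and at 48 h 0.566 (0.379 to 0.847), in the opposite direction. Col5a3, a chain of type V collagen, which regulates fibril diameter, was at 2.75 CPM in Con, 2.20, 1.21, 0.563 and 0.616 in SD, and 1.43, 1.52, 0.459, 1.58 and 1.97 in SASD. SASD 48 h over SD 48 h was 2.57 (1.24 to 5.99) for this gene, on 45 and 9 counts.

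The collagen with the highest mean level per kb of exon over the 10 libraries was a fibrillar one that did not share the Con and SASD 6 h pattern, although in Con alone Col6a1 was higher per kb (3.33 against 2.76 CPM per kb). Col11a2 (chromosome 17, 34039437 to 34066685, plus strand), a chain of the type XI collagen of cartilage, had 622 counts in Con, 232, 264, 236 and 247 in SD, and 250, 163, 88, 487 and 234 in SASD. After scaling this was 19 CPM in Con, 22.2, 26.6, 22.2 and 16.9 in SD, and 23.8, 17.7, 13.5, 17.2 and 22 in SASD. It was not raised in Con: SD 12 h was the highest library, SASD 24 h the lowest, and Con over the median of the other 9 was 0.86. Con over SASD 6 h was 0.799 (0.689 to 0.929) and SASD over SD was 1.07 (0.894 to 1.29) at 6 h, 0.666 (0.544 to 0.812) at 12 h, 0.608 (0.470 to 0.779) at 24 h and 1.01 (0.869 to 1.19) at 48 h. The annotated end of Rxrb, a gene on the same strand with a mean of 94.5 CPM against 20.1 for Col11a2, lies 1038 bases away, and whether its transcripts add to the Col11a2 count was not tested. Col27a1, another fibrillar chain known from cartilage, was at 9.56 CPM in Con, 10.3, 7.55, 7.42 and 5.68 in SD, and 9.32, 7.49, 7.19, 8.10 and 7.32 in SASD, with Con over SD 6 h at 0.927 (0.742 to 1.16).

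The remaining fibrillar genes were minor. Col5a1 and Col5a2 reached 2.08 and 3.08 CPM in Con and at most 0.958 and 1.27 CPM elsewhere. Col11a1, the partner chain of Col11a2 in type XI collagen, had 62 counts in Con, 0, 0, 0 and 5 in SD, and 1, 0, 1, 31 and 1 in SASD. It was nearly absent outside Con and the 48 h libraries, in which Col11a2 was not higher than elsewhere. Col24a1 and Col2a1, the type II chain of cartilage, had 39 and 14 counts over all 10 libraries.

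Promoters are shown for 2 genes that were high together in Con and SASD 6 h (Col1a2 and Col6a1) and for 2 fibrillar genes that were not raised there (Col11a2 and Col27a1). The windows run from 250 bases before to 50 after the RefSeq start, in GRCm38.p6, at chr6:4505368-4505667 (plus strand), chr10:76725995-76726294 (minus), chr17:34038888-34039187 (plus) and chr4:63215162-63215461 (plus). They are given 5′ to 3′ on the strand of the gene. Capitals mark matches on either strand to the CCAAT box (CCAAT, or ATTGG), the GC box (GGGCGG, or CCGCCC) and the TATA box (TATAAA, or TTTATA), and in these 4 windows no match overlaps another.
Col1a2: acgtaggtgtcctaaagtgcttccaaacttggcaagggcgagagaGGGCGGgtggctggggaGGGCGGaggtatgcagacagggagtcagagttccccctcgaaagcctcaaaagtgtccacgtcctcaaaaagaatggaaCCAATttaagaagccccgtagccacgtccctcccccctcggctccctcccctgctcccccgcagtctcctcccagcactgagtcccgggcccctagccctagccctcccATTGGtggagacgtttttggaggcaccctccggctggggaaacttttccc
Col6a1: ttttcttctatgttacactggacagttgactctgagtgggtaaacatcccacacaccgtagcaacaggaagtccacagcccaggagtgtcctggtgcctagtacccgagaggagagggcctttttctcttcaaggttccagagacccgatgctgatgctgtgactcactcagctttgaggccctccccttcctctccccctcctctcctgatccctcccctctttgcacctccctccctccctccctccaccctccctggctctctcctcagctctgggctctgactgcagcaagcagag
Col11a2: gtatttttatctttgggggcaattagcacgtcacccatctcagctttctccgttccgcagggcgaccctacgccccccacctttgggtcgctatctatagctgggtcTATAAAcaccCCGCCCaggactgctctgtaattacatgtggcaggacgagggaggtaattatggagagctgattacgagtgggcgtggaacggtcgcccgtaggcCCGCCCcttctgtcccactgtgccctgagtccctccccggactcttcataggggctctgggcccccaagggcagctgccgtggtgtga
Col27a1: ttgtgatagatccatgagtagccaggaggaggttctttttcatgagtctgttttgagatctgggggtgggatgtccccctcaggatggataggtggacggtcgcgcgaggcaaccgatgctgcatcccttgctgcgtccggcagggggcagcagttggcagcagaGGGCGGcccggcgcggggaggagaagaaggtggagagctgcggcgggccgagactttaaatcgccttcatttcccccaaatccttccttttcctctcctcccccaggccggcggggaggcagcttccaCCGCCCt
The Col1a2 window held 2 CCAAT and 2 GC boxes, Col6a1 held none of the 3 motifs, Col11a2 held 2 GC boxes and 1 TATA box, and Col27a1 held 2 GC boxes. Genes with the same pattern over libraries therefore differed in these letters. RefSeq windows matched 35 of 44 collagens (38 windows): 34.2% held a CCAAT box, against 37.4% of all 32851 windows, 60.5% a GC box against 35.7%, and 13.2% a TATA box against 13.6%. These are counts of letters in a window, not of bound sites.

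Type VI collagens form beaded microfilaments around cells and next to basement membranes, and their levels ranged widely. The 6 genes summed to 39.6 CPM in Con, 4.11, 6.14, 8.36 and 10.6 in SD, and 25.3, 1.63, 5.36, 10.2 and 3.19 in SASD. Con and SASD 6 h again stood above the rest, and SASD 12 h, at 15 counts, was the lowest. Col6a1 (chromosome 10, 76708792 to 76726168, minus strand) and Col6a2 (chromosome 10, 76595762 to 76623630, minus strand), neighbouring genes whose chains pair with Col6a3 in the classical type VI molecule, made up most of this. Col6a1 had 478 counts in Con, 15, 27, 34 and 68 in SD, and 107, 2, 8, 104 and 15 in SASD, which is 14.6 CPM in Con, 1.43, 2.72, 3.19 and 4.66 in SD, and 10.2, 0.217, 1.22, 3.66 and 1.41 in SASD. SASD over SD was 7.11 (4.12 to 13.1) at 6 h, 0.0799 (0.00920 to 0.318) at 12 h, 0.383 (0.153 to 0.844) at 24 h and 0.787 (0.574 to 1.08) at 48 h. The gene was thus higher under SASD at 6 h and lower at 12 and 24 h, beyond counting error each time.

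Col6a2 was at 18.7 CPM in Con, 2.39, 3.02, 4.70 and 4.52 in SD, and 14.6, 1.09, 3.21, 4.58 and 1.78 in SASD, with 613 counts in Con and 154 in SASD 6 h. Its SASD over SD ratio was 6.14 (4.0 to 9.78) at 6 h and 0.359 (0.157 to 0.755) at 12 h, the same directions as for Col6a1. Con exceeded SASD 6 h by a small factor, at 1.28 (1.07 to 1.53) for Col6a2 and 1.43 (1.16 to 1.79) for Col6a1. Col6a3, the third classical chain, did not share the SASD 6 h level: it had 71 counts in Con, 2, 3, 5 and 5 in SD, and 2, 1, 1, 12 and 0 in SASD, and Con over SASD 6 h was 11.4 (3.04 to 95.9). Col6a4, a related chain, had 81 counts in Con, 0, 1, 0 and 7 in SD, and 1, 1, 4, 18 and 0 in SASD, highest in Con. Its exons overlap an antisense gene that had a mean of 0 CPM. Col6a5 and Col6a6 had 67 and 27 counts in all libraries together.

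**Figure D3:**
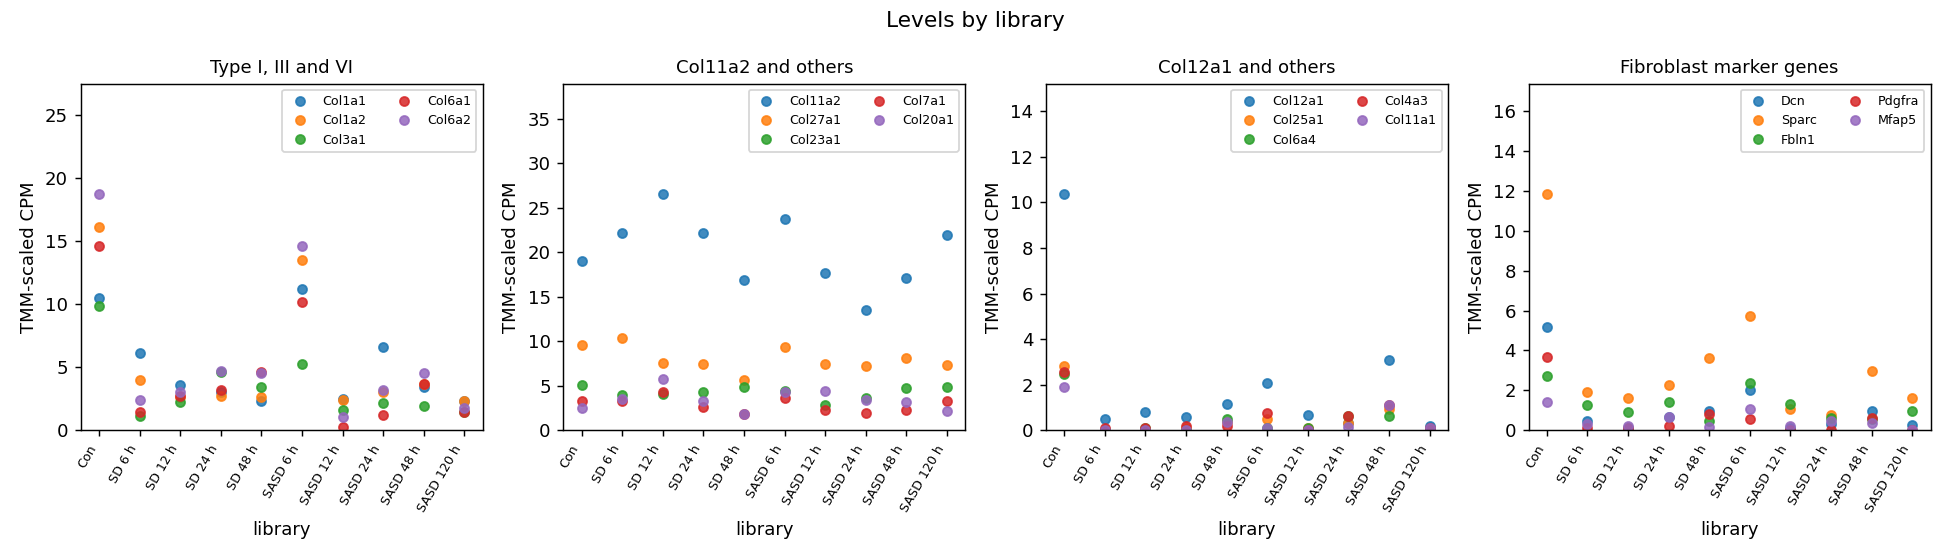
Levels (TMM-scaled CPM, linear axes that differ between panels) in the 10 libraries of 5 collagens of types I, III and VI, 5 collagens led by Col11a2, 5 collagens led by Col12a1, and 5 fibroblast marker genes. The first panel, and Dcn, Sparc, Fbln1 and Mfap5 among the markers, have Con and SASD 6 h as their 2 highest libraries, the second panel lacks this contrast, and the third is high in Con with SASD 48 h next for all 5 of its genes.

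Type IV collagens, the sheet-forming chains of basement membranes, summed to 12 CPM in Con, 3.44, 4.33, 3.19 and 3.70 in SD, and 5.71, 3.91, 2.30, 5.81 and 2.44 in SASD. Col4a1 and Col4a2, the chains found in nearly all basement membranes, are transcribed from opposite strands with overlapping exons, so their counts without strand are uncertain. Col4a1 was at 5.28 CPM in Con, 1.43, 2.12, 1.22 and 1.51 in SD, and 2.28, 1.74, 0.918, 1.83 and 1.31 in SASD. Col4a2 was at 2.05 CPM in Con, 2.19 in SASD 6 h and 0.612 to 1.90 in the other 8 libraries. Col4a3, a chain of the kidney filter membrane, had 84 counts in Con, 1, 1, 2 and 3 in SD, and 8, 0, 4, 32 and 1 in SASD, also with an overlapping antisense gene. The other 3 type IV chains had 11 (Col4a6) to 75 (Col4a4) counts in all.

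Among the short-chain network collagens, known from the endothelial sheet of the cornea and from vessels, Col8a2 was at 5.13 CPM in Con, 1.34, 1.21, 1.88 and 1.71 in SD, and 4.28, 2.82, 1.68, 2.29 and 1.31 in SASD. It repeated the Con and SASD 6 h order, with SASD over SD at 6 h of 3.20 (1.73 to 6.32) and Con over SASD 6 h of 1.20 (0.858 to 1.70). Its partner Col8a1 was at 4.37 CPM in Con, 2.19 in SASD 6 h and 0.0939 to 1.31 in the other 8. Col10a1, a marker of mature growth plate cartilage, had 19 counts in Con and 0 to 6 elsewhere, and it overlaps exons of Nt5dc1.

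Fibril-associated collagens sit on the surface of fibrils. Col12a1, their leading member by count in Con and a component of tendon and other dense connective tissue, had 339 counts in Con, 5, 8, 6 and 17 in SD, and 22, 6, 2, 87 and 2 in SASD. After scaling it was at 10.4 CPM in Con, 0.477, 0.806, 0.563 and 1.16 in SD, and 2.09, 0.651, 0.306, 3.06 and 0.188 in SASD, so that Con stood alone, 3.38 (2.66 to 4.33) times SASD 48 h and 4.95 (3.21 to 8.0) times SASD 6 h. SASD 48 h over SD 48 h was 2.63 (1.55 to 4.72). Col20a1 and Col9a3 went another way. Col20a1 was at 2.50 CPM in Con, 3.53, 5.74, 3.29 and 1.85 in SD, and 4.28, 4.45, 3.37, 3.13 and 2.16 in SASD, lower in Con than the median of the other 9, with SD 12 h the highest. It shares exons with the same-strand gene BX649560.1 (mean 7.05 CPM against 3.43), so its count is uncertain. Col9a3, a chain of the type IX collagen of cartilage, was at 2.14 CPM in Con, 2.58, 1.81, 1.97 and 1.03 in SD, and 1.14, 0.760, 1.38, 2.11 and 2.25 in SASD. Its exons overlap Tcfl5 on the other strand, which had a mean of 0.0516 CPM. Ogfr, on the same strand with a mean of 79.6 CPM against 1.72 for Col9a3, lies 1954 bases away, and its part was not tested.

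Transmembrane and anchoring collagens held both patterns. Col23a1, a membrane-bound collagen, was at 5.13 CPM in Con, 4.01, 4.03, 4.32 and 4.86 in SD, and 4.38, 2.82, 3.67, 4.75 and 4.88 in SASD, and Con over SASD 6 h was 1.17 (0.842 to 1.66). It lies 839 bases from Phykpl, a gene on the same strand with a mean of 17.9 CPM. Col7a1, the anchoring fibril chain that ties epidermis to dermis, was at 3.30 CPM in Con, 3.25, 4.33, 2.63 and 1.78 in SD, and 3.61, 2.28, 1.99, 2.29 and 3.29 in SASD. In neither Col23a1 nor Col7a1 did Con stand apart. Uqcrc1, on the same strand as Col7a1 with a mean of 93.4 CPM against 2.87, lies 3963 bases from it. Col25a1, a membrane collagen known from neurons, had 92 counts in Con, 0, 0, 1 and 5 in SD, and 5, 1, 2, 27 and 0 in SASD, which put Con over the median of the other 9 at 25.9, the highest such ratio among collagens with at least 25 counts in Con and a median above 0 in the other 9. Col18a1 and Col15a1, basement membrane collagens whose ends are cut off as soluble fragments, were at 3.21 and 1.74 CPM in Con and at 0.563 to 1.52 and 0.191 to 1.53 elsewhere.

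A set of 10 collagens from 5 classes was nearly confined to the 3 libraries with many olfactory receptor counts: Col11a1, Col24a1, Col6a5, Col9a1, Col9a2, Col19a1, Col22a1, Col13a1, Col26a1 and Col28a1. They were chosen by having at most 3 counts each summed over the other 7 libraries, where all 10 together had 8 counts. In Con they had 13 to 62 counts (median 35), in SASD 48 h 3 to 31 and in SD 48 h 1 to 5. Their summed level in Con was 2.27 times that in SASD 48 h and 5.62 times that in SD 48 h, next to 1.83 and 4.07 times for the olfactory receptors. In Con they stood at 2.67 times the olfactory receptor density (2.39 to 2.98), against 23.96 for Col1a2 and 61.4 for Col6a1. Members of the set were picked by these counts, so this is a description only.

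Most collagens that could be set against Con were at least 2-fold lower in 8 of the 9 other libraries, but they could be compared mainly through their Con counts. Averaged over both libraries of a pair, 25 counts were required, which 28 to 33 of 44 collagens reached, while only 3 to 23 of these had 25 counts in the library set against Con. A collagen that passed through its Con count alone had fewer raw counts in the other library, so the minimum favoured a lower level there. It did not force one, because Con was the deepest library. Col20a1 had 22 counts in SASD 24 h against 82 in Con, but 3.37 against 2.50 CPM. In SD 6 h 19 of 28 were at least 2-fold lower (7.24% of all genes tested), in SD 12 h 20 of 28 (8%), in SD 24 h 20 of 28 (7.49%) and in SD 48 h 22 of 29 (7.86%). In SASD 6 h 12 of 28 were (6.53%), in SASD 12 h 19 of 28 (8.16%), in SASD 24 h 20 of 28 (9.29%), in SASD 48 h 21 of 33 (6.93%) and in SASD 120 h 21 of 28 (7.99%). The median log2 ratio to Con of those that passed was -0.89 in SASD 6 h and -2.66 to -1.20 in the other 8, beside -0.03 to 0.07 over all genes tested. Only Col20a1 was 2-fold higher than Con, in SD 12 h.

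Between SD and SASD at the same time no shared control enters. At 6 h 11 collagens reached the minimum, and 5 were at least 2-fold lower in SD (0.901% of all genes tested): Col1a2, Col3a1, Col6a1, Col6a2 and Col8a2. None was 2-fold higher (0.104%), and the median log2 ratio of SD to SASD was -0.86. Of the 5, Col3a1, Col6a1 and Col8a2 had 12, 15 and 14 counts in SD 6 h and reached the minimum only through SASD 6 h, so they had to be lower in SD, while Col1a2 (42) and Col6a2 (25) had enough counts in both. Among the other 6, Col1a1 had a SASD over SD ratio of 1.84 (1.34 to 2.53), Col11a2 of 1.07 (0.894 to 1.29), Col20a1 of 1.21 (0.767 to 1.93), Col27a1 of 0.904 (0.681 to 1.20), Col23a1 of 1.09 (0.702 to 1.70) and Col7a1 of 1.11 (0.682 to 1.82). At 12 h none of 6 was 2-fold lower (0.0974%) or higher in SD (2.83%). At 24 h 1 of 7 was lower in SD (3.2%), Col1a1, with SASD over SD at 2.19 (1.35 to 3.58), and 1 was higher (3.88%), Col3a1, which passed through its SD 24 h count (49 against 14). At 48 h 2 of 17 were lower in SD (1.63%), Col5a3 and Col12a1, which both passed only through SASD 48 h (45 against 9 and 87 against 17 counts), and none was higher (4.14%). None of the 5 genes of the 6 h difference reached the minimum at 12 h, so they could not be called there. At 24 h only Col3a1 and Col6a2 reached it, and neither was 2-fold lower in SD. At 48 h all 5 reached it, and none was 2-fold lower in SD. Under that minimum, Col8a2 had a SASD over SD ratio of 2.34 (1.14 to 5.08) at 12 h.

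**Figure D4:**
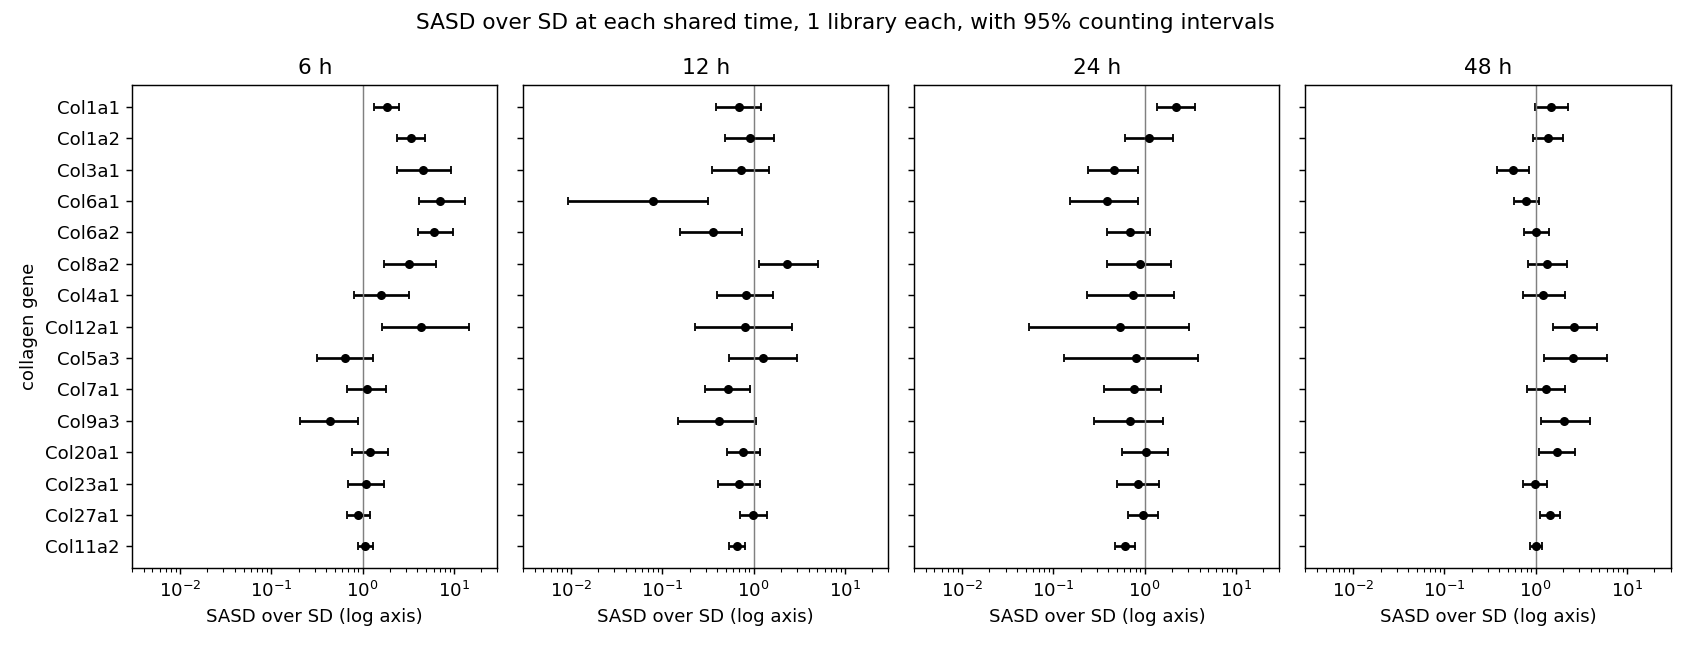
Ratio of SASD over SD (log axis) at each of the 4 shared times for 15 collagens, from 1 library each, with exact 95% counting intervals; the line marks equal levels. At 6 h Col1a2, Col3a1, Col6a1, Col6a2 and Col8a2 lie at 3.20 to 7.11, while Col11a2, Col23a1 and Col27a1 lie near 1, and at 12 h Col6a1 and Col6a2 lie below 1.

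Over the 4 shared times together, no collagen was called between SD and SASD by edgeR's quasi-likelihood test with time as a block. Of 44 collagens 18 averaged 10 counts or more. DESeq2 called 0 of 11 collagens (1.4% of 12074 genes) and limma 0 of 18 (0% of 13370 genes). At an edgeR adjusted p of 0.05, 0 were called (0% of 13370 genes), and 1 had an unadjusted p under 0.05. That gene was Col8a2, lower in SD by a log2 ratio of -0.81 ± 0.34 (SE, edgeR adjusted p = 0.613). Col12a1 was at -0.94 ± 0.49 and Col11a2 at 0.27 ± 0.17. The spread over times was large for the type VI genes, with Col6a1 at 0.12 ± 0.77 (SE). The median over the 18 was -0.16, beside -0.00 over all genes.

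Slopes over time were fitted against log2(hours/6 + 1), with Con as 0 h. For SD 30 collagens were tested, 14 of which reached the minimum through Con alone. None passed in edgeR (0 called, 0.124% of 14562 genes), DESeq2 called 1 of 18 (3.54% of all genes) and limma 0 (0.343%), and unadjusted p-values under 0.05 numbered 7. Of these 7, Col12a1 and Col4a3 reached the minimum only through Con. Col1a1 had the lowest p, with levels from 10.5 CPM in Con to 2.33 at 48 h and a slope of -0.72 ± 0.10 (SE, edgeR adjusted p = 0.0709). It was the gene DESeq2 called. Leaving out SD 48 h, edgeR called 5 of 33 lower (Col1a1, Col1a2, Col12a1, Col22a1 and Col6a4), beside 3.45% of all genes in either direction. Of these, Col12a1, Col22a1 and Col6a4 reached the minimum only through Con, so the minimum itself favoured a lower slope for them. In SASD 31 were tested, 11 of them through Con alone, and 0 passed in edgeR (0% of 14602 genes), DESeq2 or limma. Here 11 had unadjusted p-values under 0.05. The share of all genes under that unadjusted cut was not computed for any fit. Such counts, for collagens and for the lists below, are therefore not read as results. The largest of those 11 in size was Col6a3, at -0.92 ± 0.35 (SE, edgeR adjusted p = 0.9999). Col6a3 reached the minimum only through Con, with 71 counts there against 2, 1, 1, 12 and 0 in SASD. The minimum itself thus favoured a lower slope for this gene. The SD and SASD slopes differed for 0 of 27 collagens by edgeR (0.41% of 14138 genes). DESeq2 (1.96% of all genes) and limma (0.453%) likewise called 0, and 0 had an unadjusted p under 0.05. Slopes of both arms rest on the same Con library.

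Genes that fold, process, bind or cut collagen were summarised from fixed lists. Of 30 genes for collagen folding, modification and cross-linking, 15 to 22 were tested in each of the 4 fits and edgeR called 0 in any, with 0 to 5 at an unadjusted p under 0.05. DESeq2 called 1 of them, P4hb, a subunit of prolyl 4-hydroxylase, higher with time in SD (slope 0.25, DESeq2 adjusted p = 0.00764, beside 3.54% of all genes called), and limma 0. Values of single genes below were chosen after they were seen. Serpinh1, the collagen-specific chaperone of the endoplasmic reticulum, was at 3.73 CPM in Con, 0.477, 0.705, 0.470 and 1.78 in SD, and 3.90, 0.326, 0.459, 0.951 and 0.657 in SASD, high in Con and SASD 6 h as Col1a2, Col6a1 and Col6a2 were. P4ha2, P3h2, P3h3, Fkbp10, Adamts2, Adamts14 and Lox also had Con and SASD 6 h as their highest libraries. The rest of this list, most of its genes, did not, P4hb (132 CPM in Con, 230 in SD 48 h) among them. Of 11 collagen receptors 9 or 10 were tested and 0 called by edgeR in any of the 4 fits, with 0 to 2 at an unadjusted p under 0.05. DESeq2 and limma likewise called 0, beside 0% to 3.54% of all genes. The platelet collagen receptor Gp6 was at 80.3 (SASD 48 h) to 422 CPM (SASD 24 h), and the 5 platelet markers checked ran from 1243 to 8278 CPM in the same 2 libraries. Of 10 collagen-cutting proteases and their inhibitors 6 were tested. Mmp8, the neutrophil collagenase, was the 1 gene of this list that edgeR called in any of the 4 fits, rising with time in SD at a slope of 0.99 ± 0.09 (SE, edgeR adjusted p = 0.0411), and it went from 56.1 CPM in Con to 567 in SD 48 h. The call was lost without SD 6 h (edgeR adjusted p = 0.174), SD 12 h (0.0611) or SD 24 h (0.211) and with hours on a linear scale (0.346), and was kept without Con (0.0293) or SD 48 h (0.0311). For the same SD slope DESeq2 called Mmp8, Mmp9 and Timp2 (3.54% of all genes called), and limma Mmp8 and Timp2 (0.343%), all rising. DESeq2 also called Mmp9 higher in SD than in SASD (adjusted p = 0.0267, 1.4% of all genes). The slope was called higher in SD than in SASD for Mmp8 and Mmp9 by DESeq2 (1.96% of all genes) and for Mmp8 by limma (0.453%).

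Col1a2, Col6a1 and Col6a2 were highest in Con and next in SASD 6 h, an order that 556 of all 29248 genes with a count had. Of 12 fibroblast and matrix genes, 4 (Dcn, Sparc, Fbln1 and Mfap5) had it. A further 5 (Lum, Pdgfra, Pdgfrb, Postn and Fap) were highest in Con with another library next, and 3 (Fbln2, Fn1 and Thy1) were highest elsewhere. All 12 had counts in Con, SD 48 h and SASD 48 h, 10 in SASD 6 h and 8 to 10 in the other 6. Their sum was 362 CPM in Con, 341 to 823 in SD and 294 to 751 in SASD, most of it from Fn1 and Thy1, which leukocytes also express. Dcn, which encodes the fibroblast proteoglycan decorin, had 169 counts in Con, 5, 1, 7 and 14 in SD, and 21, 1, 2, 28 and 3 in SASD, or 5.16 CPM in Con, 0.477, 0.101, 0.657 and 0.958 in SD, and 2.0, 0.109, 0.306, 0.986 and 0.282 in SASD. Sparc, a collagen-binding matrix protein also found in platelets, was at 11.8 CPM in Con, 1.91, 1.61, 2.25 and 3.63 in SD, and 5.71, 1.09, 0.765, 2.96 and 1.60 in SASD. Pdgfra, another fibroblast gene, had 120 counts in Con and 0 to 17 elsewhere, 6 of them in SASD 6 h, and Lum was at 0 in 7 libraries and at 5 counts in Con. Epithelial markers ran from 2.86 to 5.07 CPM, fat markers from 1.22 to 4.79, skeletal muscle markers from 3.52 to 6.66, and bone and cartilage markers from 3.47 to 6.90. Lens and retina markers were at 4.73 CPM in Con and 0.302 to 2.18 elsewhere. Endothelial markers, mostly Pecam1 and Vwf, were at 721 CPM in Con and 467 to 2289 elsewhere. Smooth muscle markers, mostly Myl9, were at 336 and 167 to 1191, and nerve markers at 222 and 240 to 477. The part of these cell types in the collagen levels was not tested.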

How the data were processed

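Blood RNA of 10 groups was sequenced, 1 library of 3 pooled mice each. The submitters' processing notes name Trimmomatic 0.39, STAR 2.7.9a and mm10. Per the file headers, the authors ran featureCounts 2.0.3 on read pairs at exons, summed by gene, with a 10x Genomics mouse annotation and no strand, multi-mapping or multi-overlap option. The deposited values are raw counts of 32285 genes. A symbol was found for 32235 and not for 50. Exon lengths and positions were taken from GENCODE M21, which may differ from the annotation counted.

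TMM factors and quasi-likelihood fits were made in edgeR 4.0.16 (R 4.3.3) on all genes averaging 10 counts or more, with Benjamini-Hochberg adjustment at 0.05, and only collagen and pathway rows were read. DESeq2 1.42.0 and limma 3.58.1 were alternatives. With 1 pool per group, p-values measure the spread between these libraries, which may be technical. On simulated counts, edgeR recovered 64% of 2-fold and 100% of 4-fold changes for SD against SASD, 6% and 78% for the SD trend, 11% and 81% for the SASD trend and 18% and 96% for the difference of trends. The simulation changed 200 genes drawn from all those tested and set the same dispersion for every gene. Real spreads differed, with SEs in the SD against SASD fit of 0.17 for Col11a2 and 0.77 for Col6a1. These shares may therefore not hold for the collagens. Ratios of single libraries carry exact conditional binomial (Clopper-Pearson) 95% intervals, and totals Poisson ones (scipy 1.17.1). Counts of 2-fold genes used a prior count of 2 and required 25 counts on average over the pair. Expected detection used the hypergeometric distribution at 7825120 counts.

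Values per library were given for the 12 collagens highest per kb, the 3 highest and 3 lowest in Con over the median of the other 9 libraries, and any past 2-fold between SD and SASD; genes named beyond these (Col12a1 and Col5a3 fall under the last rule) were chosen after their values were seen. The collagens and all lists were chosen with earlier results of these data known.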

Additional observations from a re-analysis of the deposited data

How the results depend on the processing

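Counting error was the only error available for single libraries, and collagens with few counts, above all in SASD 24 h, could not be placed firmly at this depth. The ratio of collagen to olfactory receptor density depended on its construction in every library, but stayed above 1. The place of Con among the libraries depended on it too. With the median collagen, Con (4.97) was above SD 6 h (3.78), SASD 12 h (3.15) and SASD 120 h (2.60). With vomeronasal receptors, Con (6.83) was near SD 6 h (7.03) and above SASD 12 h (5.95). With coding length it was 4.79 in Con, 21.6, 19.4, 23.8 and 7.15 in SD, and 34.3, 15, 15.5, 3.96 and 18.4 in SASD. With the median collagen it was 4.97 in Con, 3.78, 6.57, 7.76 and 4.43 in SD, and 14, 3.15, 9.58, 3.69 and 2.60 in SASD. With vomeronasal receptors it was 6.83 in Con, 7.03, 8.74, 8.36 and 6.25 in SD, and 12.5, 5.95, 10.3, 4.87 and 8.12 in SASD. Without the 3 collagens of highest summed count it was 7.63 in Con, 23.6, 21.6, 26.7 and 9.06 in SD, and 45.5, 17.3, 19.9, 5.39 and 19 in SASD. Without the 10 highest olfactory receptor genes, an alternative chosen after seeing the data, it was 10.3 in Con, 171, 128, 193 and 19.6 in SD, and 172, 117, 125, 9.09 and 165 in SASD.

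The collagen total of Con over SASD 6 h became 1.82 with plain library totals, 1.74 without the 3 collagens of highest count, and 1.32 for the count above the olfactory receptor density (also chosen after seeing the data). Con over SD 6 h became 3.15, 3.69 and 2.33 in that order. Con over SD 48 h became 3.10 with library totals and 3.43 without the 3, Con over SASD 48 h became 2.60 without the 3, SASD 6 h over SD 6 h became 2.12 without the 3, and SASD 48 h over SD 48 h became 1.34 with library totals. Every one of these kept its direction. With 100 counts required on average over a pair, 9 collagens were tested at each SD time, and 5, 6, 6 and 6 were 2-fold lower than Con. In SASD 10, 8, 8, 11 and 9 were tested, and 1, 6, 5, 8 and 6 were 2-fold lower. The share over all genes was 0.859% to 2.37%. Of the collagens tested, only 2, 1, 1 and 1 in SD had 100 counts in the library set against Con. In SASD 5, 1, 0, 6 and 1 did. The rest reached the minimum through their Con counts, which favoured a lower level in the other library. Between SD and SASD none was then 2-fold lower at 6, 24 or 48 h or higher at 24 h (0 each), but only 2, 1 and 3 collagens were tested at 6, 24 and 48 h, and with library totals 0 were lower in SD at 24 h. At least 3 counts at equal depth would be expected for 41.4 collagens in Con, 34.6 in SASD 48 h, 28.2 in SD 48 h, 25.6 in SASD 6 h and 18.4 in SD 6 h.

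In the SD trend DESeq2 called 1 collagen (Col1a1), a term for Con and the 48 h libraries, added after seeing the data, gave 5 in edgeR (Col1a1, Col1a2, Col12a1, Col4a3 and Col5a3, all lower, Col12a1 and Col4a3 passing only through Con) beside 5.47% of all genes, and leaving out each library in turn gave 0 to 5. The cause was not tested. The other fits gave 0 collagens under every alternative run. Among the pathway lists, the same added term gave Bmp1 and Mrc2 lower in the SD trend, and P4hb, Plod3, Mmp8, Mmp9 and Timp2 higher. Bmp1 reached the minimum only through Con, with 115 counts there against 5, 2, 4 and 5 in SD. In the difference of trends the term gave Mmp8 and Mmp9 higher in SD, beside 1.87% of all genes. A fit without Con and the 48 h libraries was also added after seeing the data. In its difference of trends edgeR called Gp6 and Itga2 lower in SD (edgeR adjusted p = 0.0461 and 0.0497). Mmp8 was called higher in SD there (edgeR adjusted p = 0.0462), beside 1.53% of all genes. In its SD trend Mmp8 and Mmp9 were called higher, beside 2.42% of all genes. No paired analysis was possible because the libraries carry no replicate numbers, and SD against SASD was blocked by time instead.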
